A study of Mus musculus with 16 samples.

Results

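Nos2, Cd80, Grap2 and Il7 are 4 immune genes that were picked from the 21936 genes of the count table because their expression had been seen to be higher in osteoclast cultures carrying both a Flt3 and a Ptprc mutation than in the other genotypes. The choice rested on the expression values described here, so every comparison with the double mutant is given as a description and without a test. Tests are given for the comparisons of each single mutant with wild type, which leave out the double mutant. The choice also drew on the levels in these other genotypes, so the p-values of these tests are not free of it. All 4 genes were among the 12093 with enough counts to be tested. The description they were picked by held in full for Cd80 alone: its 4 double mutant libraries lay above the other 12 libraries, while 3 of 4 did so for Nos2, for Grap2 and for Il7. Across the table, 98 genes, or 0.81% of those tested, had all 4 double mutant libraries above the other 12.

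Nos2 encodes inducible nitric oxide synthase, which activated macrophages use to make nitric oxide from arginine, and which interferon-gamma and NF-kB signals switch on. Cd80 encodes B7-1, a surface protein of antigen-presenting cells that binds CD28 and CTLA-4 on T cells. Grap2 encodes GADS, a GRB2-family adaptor that links LAT to SLP-76 below antigen and collagen receptors. Il7 encodes interleukin-7, a cytokine of lymphocyte survival that is made mainly by stromal and epithelial cells and signals through IL7R and the common gamma chain.

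The cultures were started from bone marrow cells positive for CD11b, taken from C57BL/6J mouse lines. They received M-CSF at 50 ng/ml alone for 3 days and then RANKL at 20 ng/ml as well, and RNA was taken on day 3 to 5, at the first sight of mature osteoclasts. Each of 4 genotypes had 4 libraries: the Flt3 ITD knock-in combined with the Ptprc knockout (FLT3 ITD Ptprc KO, called the double mutant), the knock-in of the Flt3 internal tandem duplication alone (FLT3 ITD), the Ptprc knockout alone (Ptprc KO), and wild type (WT). The ITD makes the FLT3 receptor kinase active without ligand, and Ptprc encodes the phosphatase CD45. The labels do not say whether replicates were separate animals, so the spread behind each p-value may be technical. They give no day of harvest per culture.

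Library totals lay between 24211724 and 35773313 counts. Ptprc was at 54.1 to 86.7 CPM, counts scaled to the library total, in the double mutant and 30.8 to 45.8 CPM in Ptprc KO, against 230 to 543 CPM in FLT3 ITD and 412 to 472 CPM in WT, so the libraries carried the Ptprc level of their labels. FLT3 ITD replicates 1 and 3 were closer to each other than any other pair of libraries, although they differed by more than counting noise, and were kept as 2 samples. In FLT3 ITD replicate 2 expression relative to the mean of all libraries fell with gene length (rho -0.46 by Spearman, taken over genes, each no replicate of another; -0.18 to 0.18 in the other 15 libraries). Osteoclast markers, taken as the mean log2 CPM of 12 genes such as Ctsk and Acp5, stood at 7.43 to 7.58 in double mutant replicates 1, 2 and 4 but at 9.62 in replicate 3. They stood at 9.99 to 10.06 in FLT3 ITD replicates 1 to 3 but at 8.34 in replicate 4, at 9.08 to 10.41 in Ptprc KO and at 9.34 to 9.6 in WT. Fold changes of the 4 genes are therefore also given without double mutant replicate 3 or FLT3 ITD replicate 4.

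Of the 4 genes, Cd80 and Grap2 have a promoter in the RefSeq table for GRCm38.p6, and both are shown because the expression of each stood higher in the double mutant than in WT in every library. Each line is the plus strand over the 250 bases before the RefSeq start site, 5′ to 3′, in lower case, with capitals for matches to a kB motif (3 G, then 5 bases of any kind, then 2 C) or an AP-1 motif (TGANTCA) on either strand. The Cd80 stretch is chr16:38458683-38458932 and the Grap2 stretch is chr15:80623233-80623482.
Cd80: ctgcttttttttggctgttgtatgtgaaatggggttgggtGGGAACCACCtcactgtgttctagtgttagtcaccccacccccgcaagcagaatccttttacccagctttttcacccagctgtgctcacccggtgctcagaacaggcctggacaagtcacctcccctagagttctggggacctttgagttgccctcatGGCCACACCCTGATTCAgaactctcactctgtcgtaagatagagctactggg
Grap2: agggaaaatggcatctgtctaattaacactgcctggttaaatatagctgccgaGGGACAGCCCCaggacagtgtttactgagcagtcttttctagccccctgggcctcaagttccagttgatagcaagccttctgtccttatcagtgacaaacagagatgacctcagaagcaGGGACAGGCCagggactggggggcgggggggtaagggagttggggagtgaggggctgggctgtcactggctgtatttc

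The Cd80 stretch held kB matches at positions -210 to -201 and -52 to -43 from the start site, and an AP-1 match at -42 to -36, directly beside the second kB match. In the Grap2 stretch kB matches began at -197, at -196, where they overlap, and at -78. A kB match of these letters is common, being present in 45.8% of 32851 promoters of the same length, while an AP-1 match is present in 6.75%. No match to an ISRE, GAS (TTCNNNGAA), PU.1 (GAGGAAGT), C/EBP (TTGCNNAA) or NFAT (TGGAAA) motif was found in these windows. The Cd80 start site used by RefSeq lies 3372 bases inside the GENCODE gene and that of Grap2 lies 50889 bases inside it, and in each gene 1 GENCODE transcript begins there. A match describes letters only, and binding was not measured.

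Nos2 (ENSMUSG00000020826; GRCm38 chr11, 78920787 to 78960254, plus strand) had 100, 25, 209 and 85 counts in double mutant replicates 1 to 4, or 3.06, 0.865, 6.81 and 2.55 CPM. It had 7, 3, 2 and 8 counts in FLT3 ITD, or 0.219, 0.13, 0.0625 and 0.333 CPM. In Ptprc KO it had 23, 12, 6 and 18 counts, or 0.692, 0.525, 0.227 and 0.643 CPM. By CPM the 4 double mutant libraries were above the FLT3 ITD and the Ptprc KO libraries without overlap. In the authors' deposited TPM, scaled to gene length and library total, double mutant replicate 2 (0.577) lay below Ptprc KO replicate 1 (0.593). In WT Nos2 had 46, 13, 12 and 12 counts, or 1.59, 0.345, 0.412 and 0.426 CPM. WT replicate 1 thus stood above double mutant replicate 2, and the other 3 WT libraries stood below every double mutant library.

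The means were 3.32 ± 2.51 CPM in the double mutant, 0.186 ± 0.117 CPM in FLT3 ITD, 0.522 ± 0.209 CPM in Ptprc KO and 0.693 ± 0.599 CPM in WT (SD, n = 4 each). The fitted log2 fold change of the double mutant was 4.14 (SE 0.74) against FLT3 ITD, 2.65 (SE 0.67) against Ptprc KO and 2.26 (SE 0.65) against WT. Double mutant replicate 3, the highest library, carried part of these values. Without it they were 3.53, 2.04 and 1.64, and without WT replicate 1 the last was 3.04. Without FLT3 ITD replicate 4 the first of them was 4.55. Nos2 was thinly covered outside the double mutant, where 7 of 12 libraries reached the filter level of 0.341 CPM. Counting error alone gave a coefficient of variation of 44.7% at the mean of 5 counts in FLT3 ITD, against 9.77% in the double mutant.

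In the single mutants, Nos2 was lower in each of the 4 FLT3 ITD libraries than in any WT library. The log2 fold change was -1.89 (SE 0.72), with an unadjusted p of 0.019 and an adjusted p of 0.59 by the edgeR quasi-likelihood test, so it did not pass the threshold of 0.05. It was -1.09 without WT replicate 1 and -2.29 without FLT3 ITD replicate 4. In Ptprc KO against WT it was -0.40 (SE 0.66, adjusted p = 1 by edgeR), a value that turned to 0.41 without WT replicate 1. In both comparisons 0 of the 4 genes passed by edgeR; at an unadjusted p under 0.05 there were 3 in FLT3 ITD and 1 in Ptprc KO, beside 8.45% and 0.843% of all tested genes. The share of all tested genes that passed was 0.0413% for FLT3 ITD against WT and 0.0331% for Ptprc KO against WT, and 3.2% had FLT3 ITD below WT without overlap, as Nos2 did.

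Of 24 listed genes of nitric oxide synthesis and arginine use, 17 were tested and 0 passed by edgeR in any of the 5 comparisons of genotypes, with 0 to 3 at an unadjusted p under 0.05 in a comparison. With DESeq2, the listed genes of all 7 lists used here that passed were Cd38 in FLT3 ITD against WT, Cxcl9 and Socs2 in the double mutant against FLT3 ITD, Cblb, Cd163, Cd38 and Socs2 against Ptprc KO, and Cd163, Cd38 and Socs2 against WT. DESeq2 also called more genes than edgeR over the whole table in each of the 5 comparisons, as given below. By edgeR, the share of all tested genes at an unadjusted p under 0.05 was 8.45% in FLT3 ITD against WT, 0.843% in Ptprc KO against WT, and 25.7% in the double mutant against FLT3 ITD, 17.8% against Ptprc KO and 7.89% against WT. The 17 nitric oxide genes had a median log2 fold change of -0.13 for the double mutant against FLT3 ITD and 0.19 against WT, beside 0.03 and 0.05 over all tested genes. Ass1, which encodes the synthase that regenerates arginine from citrulline, averaged 185 ± 81.7 CPM in the double mutant, 72.8 ± 81.9 CPM in FLT3 ITD, 45 ± 37.4 CPM in Ptprc KO and 47.1 ± 10.7 CPM in WT (SD, n = 4 each). The FLT3 ITD spread was due to replicate 4, at 196 CPM, beside 29.4 to 34.2 CPM in the other 3. Without that replicate, the log2 fold change of Ass1 in the double mutant against FLT3 ITD was 2.54 with an adjusted p of 0.029 by edgeR. Arg1, encoding the arginase that competes for the same substrate, averaged 2.81 ± 2.08 CPM in the double mutant, 13.2 ± 25.6 CPM in FLT3 ITD, 0.912 ± 1.15 CPM in Ptprc KO and 1.1 ± 1.65 CPM in WT. Its FLT3 ITD mean also came from replicate 4, at 51.6 CPM, since the other 3 were at 0.344 to 0.476 CPM. Gch1, which makes the cofactor tetrahydrobiopterin, averaged 38.9 ± 20.6 CPM in the double mutant and 26.6 ± 3.51 CPM in WT. The other nitric oxide synthases, Nos1 and Nos3, did not reach the level for testing and had at most 18 and 17 counts in a library.

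Among 22 genes of the interferon-gamma and NF-kB inputs to Nos2, 0 passed by edgeR in any of the 5 comparisons (0 to 4 at an unadjusted p under 0.05), and their median log2 fold change in the double mutant was 0.26 against FLT3 ITD, 0.29 against Ptprc KO and 0.29 against WT. Irf1, an interferon-induced transcription factor gene, averaged 49.1 ± 15.5 CPM in the double mutant, 32.2 ± 3.95 CPM in FLT3 ITD, 41.5 ± 17.2 CPM in Ptprc KO and 43.7 ± 19 CPM in WT. Irf1 in the double mutant lay above FLT3 ITD without overlap, at 38.4 to 72 CPM against 27.1 to 36.5 CPM, and overlapped with Ptprc KO and WT. Of 15 tested genes of classical macrophage activation, 0 passed by edgeR in any comparison (0 to 5 at an unadjusted p under 0.05). In the double mutant 11 had a positive log2 fold change against FLT3 ITD and 13 against WT, with medians of 0.74 and 1.51. In FLT3 ITD against WT 10 were positive, with a median of 0.94, and in Ptprc KO against WT 12, with a median of 0.23. Libraries differed widely within groups: Acod1, encoding the enzyme that makes itaconate, averaged 108 ± 111 CPM in the double mutant and 21 ± 18.6 CPM in WT. Genes of this list were not higher in the double mutant throughout, since Cd38 was at 0.0651 to 1.11 CPM there and 0.173 to 1.21 CPM in FLT3 ITD, beside 1.38 to 9.5 CPM in Ptprc KO and 1.72 to 6.86 CPM in WT.

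Cxcl9, a chemokine gene that needs interferon-gamma, had its lowest level in FLT3 ITD, as Nos2 did. It had 26, 25, 19 and 11 counts in double mutant replicates 1 to 4 and 3, 0, 4 and 3 counts in FLT3 ITD. In Ptprc KO it had 30, 7, 9 and 11 counts, and in WT 31, 14, 7 and 5 counts. The double mutant was above FLT3 ITD without overlap, and overlapped with Ptprc KO and WT. The log2 fold change of Cxcl9 against FLT3 ITD was 2.82 (SE 0.71, adjusted p = 0.1 by edgeR), and it passed with DESeq2 (adjusted p = 0.011) and in edgeR without FLT3 ITD replicate 4 (adjusted p = 0.036) or without double mutant replicate 3 (adjusted p = 0.039). It was named after its values were seen. Alternative activation genes (10 tested, 0 passed by edgeR, 0 to 3 at an unadjusted p under 0.05) had medians of -0.47 against FLT3 ITD and 0.28 against WT. Cd163, a scavenger receptor gene of that list, averaged 0.0643 ± 0.0701 CPM in the double mutant, 0.298 ± 0.222 CPM in FLT3 ITD, 1.57 ± 0.883 CPM in Ptprc KO and 1.56 ± 1.27 CPM in WT. Its adjusted p by edgeR was 0.064 for the double mutant against Ptprc KO and 0.083 against WT.

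**Figure D1:**
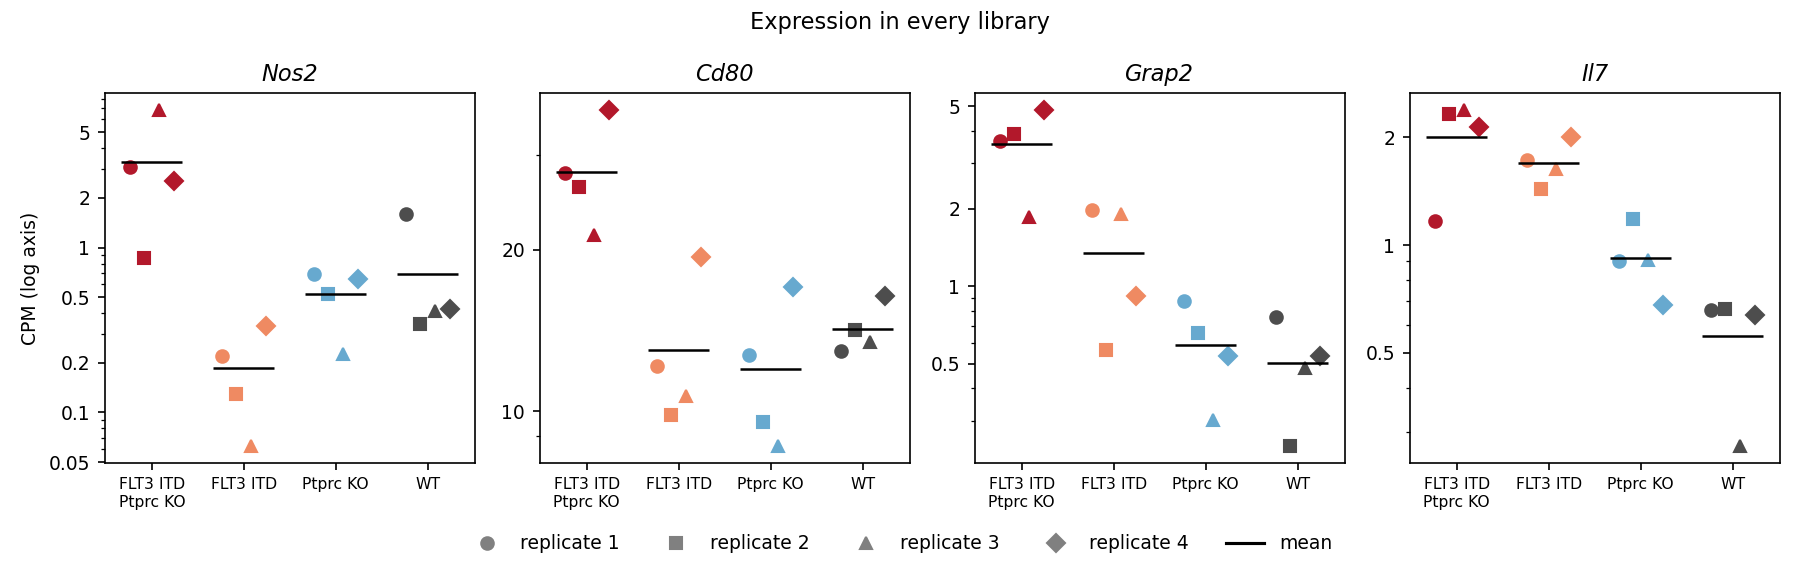
CPM of Nos2, Cd80, Grap2 and Il7 in each library on a log axis, by genotype, with the replicate number shown by the symbol and the mean by a bar. The 4 double mutant libraries of Cd80 sit between 21.3 and 36.4 CPM, above the other 12, whereas for Nos2, Grap2 and Il7 1 double mutant library lies inside the range of another genotype.

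Cd80 (ENSMUSG00000075122; GRCm38 chr16, 38455561 to 38496335, plus strand) was the best covered of the 4 genes, with 218 to 1214 counts in a library. It had 27.8, 26.2, 21.3 and 36.4 CPM in double mutant replicates 1 to 4. In FLT3 ITD it had 12.1, 9.83, 10.7 and 19.4 CPM. These ranges did not overlap, and the FLT3 ITD library nearest to the double mutant was replicate 4. In Ptprc KO it had 12.8, 9.54, 8.62 and 17 CPM, and in WT 13, 14.2, 13.5 and 16.4 CPM. The 3 other genotypes overlapped with each other.

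Cd80 averaged 27.9 ± 6.29 CPM in the double mutant, 13 ± 4.37 CPM in FLT3 ITD, 12 ± 3.81 CPM in Ptprc KO and 14.3 ± 1.52 CPM in WT (SD, n = 4 each). The fitted fold of the double mutant was 2.15 against FLT3 ITD, 2.33 against Ptprc KO and 1.96 against WT, or log2 fold changes of 1.1, 1.22 and 0.97 (SE 0.25 each). Without double mutant replicate 3 the log2 fold changes were 1.21, 1.33 and 1.08. Without FLT3 ITD replicate 4 the first of them was 1.36. Neither single mutant differed from WT by edgeR: the log2 fold change was -0.13 (SE 0.25, adjusted p = 0.87; -0.39 without replicate 4) in FLT3 ITD and -0.25 (SE 0.25, adjusted p = 1) in Ptprc KO. The fitted double mutant value over WT exceeded the 2 single mutant values added, by an interaction of 1.35 (SE 0.35) on the log2 scale. This interaction is given without a test, since the rule that picked Cd80 favours a positive value. The same quantity was 4.54 (SE 0.98) for Nos2, or 3.72 without WT replicate 1, 1.16 (SE 0.66) for Grap2 and -0.47 (SE 0.44) for Il7.

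Of 18 listed genes of B7 and TNF-family costimulation, 12 were tested and 0 passed by edgeR in any comparison, with 0 to 2 at an unadjusted p under 0.05. Their median log2 fold change in the double mutant was 0.49 against FLT3 ITD, 0.68 against Ptprc KO and 0.55 against WT. Cd86, which encodes B7-2, the other ligand of CD28 and CTLA-4, averaged 20.2 ± 31.5 CPM in the double mutant, 18.2 ± 22.9 CPM in FLT3 ITD, 15.6 ± 17 CPM in Ptprc KO and 17.6 ± 15.9 CPM in WT. In each genotype its mean hung on few libraries, such as 67.4 CPM in double mutant replicate 2 beside 2.55 to 7.63 CPM in the other 3. In FLT3 ITD and in Ptprc KO the highest library was replicate 4 for both Cd80 and Cd86, at 52.6 and 40.9 CPM for Cd86, whereas in the double mutant Cd80 was highest in replicate 4, where Cd86 was lowest. Cd274, encoding PD-L1, which can also bind CD80, averaged 91.7 ± 30.3 CPM in the double mutant, 53.3 ± 39.6 CPM in FLT3 ITD, 53.3 ± 24.1 CPM in Ptprc KO and 54.7 ± 20.7 CPM in WT. Its log2 fold change against FLT3 ITD was 0.78 (SE 0.46, adjusted p = 0.27 by edgeR), and 1.43 with an adjusted p of 0.037 without FLT3 ITD replicate 4. Tnfsf9, encoding the ligand of the T cell receptor 4-1BB, averaged 8.55 ± 4.69 CPM in the double mutant, 4.05 ± 2.97 CPM in FLT3 ITD, 2.43 ± 2.48 CPM in Ptprc KO and 2.37 ± 1.42 CPM in WT. On the receptor side, Cd28 averaged 14.1 ± 10 CPM in the double mutant and 14 ± 3.55 CPM in WT, and Ctla4 had at most 3 counts in a library.

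Grap2 (ENSMUSG00000042351; GRCm38 chr15, 80572594 to 80652854, plus strand) had 120, 113, 57 and 161 counts in double mutant replicates 1 to 4, or 3.68, 3.91, 1.86 and 4.83 CPM. It had 63, 13, 61 and 22 counts in FLT3 ITD, or 1.97, 0.563, 1.91 and 0.916 CPM. Double mutant replicate 3 lay just below FLT3 ITD replicates 1 and 3, and the other 3 double mutant libraries lay above all of FLT3 ITD. In Ptprc KO it had 29, 15, 8 and 15 counts, or 0.872, 0.657, 0.302 and 0.536 CPM. In WT it had 22, 9, 14 and 15 counts, or 0.761, 0.239, 0.481 and 0.533 CPM. Every double mutant library stood above these 8 libraries.

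Grap2 averaged 3.57 ± 1.24 CPM in the double mutant, 1.34 ± 0.709 CPM in FLT3 ITD, 0.592 ± 0.238 CPM in Ptprc KO and 0.503 ± 0.214 CPM in WT (SD, n = 4 each). The log2 fold change of the double mutant was 1.40 (SE 0.46) against FLT3 ITD, 2.58 (SE 0.48) against Ptprc KO and 2.82 (SE 0.49) against WT. Without double mutant replicate 3 these values were 1.61, 2.79 and 3.04, and without FLT3 ITD replicate 4 the first was 1.26. In FLT3 ITD against WT the log2 fold change was 1.42 (SE 0.48), with 3 of 4 libraries above all of WT, an unadjusted p of 0.0094 and an adjusted p of 0.59 by edgeR; it was 1.57 without FLT3 ITD replicate 4. In Ptprc KO against WT it was 0.25 (SE 0.48, adjusted p = 1 by edgeR). Grap2 contains 2 untested genes on the same strand, Gm49553 and Mir6957, whose reads cannot be told from its own.

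Of 25 listed partners and relatives of GADS, 23 were tested and 0 passed by edgeR in any comparison, with 0 to 7 at an unadjusted p under 0.05 and a median log2 fold change of 0.12 in the double mutant against FLT3 ITD and 0.09 against WT. The count of 7 was in the double mutant against FLT3 ITD, where 25.7% of all tested genes were at such a p. The related adaptors had close means: Grb2 averaged 280 ± 45.6 CPM in the double mutant, 264 ± 29.4 CPM in FLT3 ITD, 267 ± 27.2 CPM in Ptprc KO and 262 ± 18.1 CPM in WT. Grap, the other close relative, averaged 14.6 ± 4.99 CPM in the double mutant and 14.1 ± 1.71 CPM in WT. Transcripts of the proteins that GADS joins had lower means in the double mutant than in FLT3 ITD. Lat averaged 20 ± 24.7 CPM in the double mutant, 65.7 ± 47.8 CPM in FLT3 ITD, 42.9 ± 25.7 CPM in Ptprc KO and 23.9 ± 7.01 CPM in WT. Its level was 6.15 to 10.6 CPM in double mutant replicates 1, 2 and 4 but 57 CPM in replicate 3, and without replicate 3 its log2 fold change against FLT3 ITD was -3.09 with an adjusted p of 0.027 by edgeR. Lcp2, encoding SLP-76, averaged 212 ± 109 CPM in the double mutant, 298 ± 119 CPM in FLT3 ITD, 319 ± 101 CPM in Ptprc KO and 281 ± 72.1 CPM in WT. Map4k1, encoding the kinase HPK1, which binds GADS, averaged 15.5 ± 9.82 CPM in the double mutant, 7.47 ± 3.44 CPM in FLT3 ITD, 5.17 ± 2.1 CPM in Ptprc KO and 5.87 ± 3.87 CPM in WT.

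GADS is a protein of T cells, platelets and mast cells, and RNA of these cells was looked for beside Grap2. In bulk RNA more cells of a type and more RNA per cell cannot be told apart. Of 13 T cell markers 10 are in the table, and their summed level was 8.67 to 33.1 CPM in the double mutant, 21.5 to 28.8 CPM in FLT3 ITD, 21 to 63.4 CPM in Ptprc KO and 22.7 to 65.8 CPM in WT. The sum came mostly from Cd4, Cd5 and Cd28, while the defining Cd3d, Cd3e and Cd3g had at most 2, 1 and 2 counts in a library and Themis had 0. The 8 mast cell and basophil markers summed to 0.276 to 1.37 CPM in the double mutant and 0.833 to 2.1 CPM in FLT3 ITD. They summed to 1.11 to 2.32 CPM in Ptprc KO and 0.959 to 1.06 CPM in WT. Of the 8, 7 were at 0 throughout the double mutant and throughout WT, 6 throughout FLT3 ITD and 4 throughout Ptprc KO. In the double mutant and in WT the sum was Kit alone. The 8 megakaryocyte and platelet markers summed to 12.3 to 183 CPM in the double mutant, 27 to 257 CPM in FLT3 ITD, 10.8 to 324 CPM in Ptprc KO and 5.3 to 168 CPM in WT, with the defining Gp9 and Gp1bb at 0 in all 16 libraries.

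Il7 (ENSMUSG00000040329; GRCm38 chr3, 7569994 to 7613760, minus strand) had 38, 67, 73 and 71 counts in double mutant replicates 1 to 4, or 1.16, 2.32, 2.38 and 2.13 CPM. It had 55, 33, 52 and 48 counts in FLT3 ITD, or 1.72, 1.43, 1.63 and 2 CPM. The double mutant and FLT3 ITD overlapped, since double mutant replicate 1 was below all of FLT3 ITD and the other 3 were above. In Ptprc KO it had 30, 27, 24 and 19 counts, or 0.902, 1.18, 0.907 and 0.679 CPM. In WT it had 19, 25, 8 and 18 counts, or 0.657, 0.663, 0.275 and 0.64 CPM. By CPM all 8 libraries with FLT3 ITD lay above all of WT, and so did the 4 of Ptprc KO, by a narrow margin. In the deposited TPM 2 of the 4 Ptprc KO libraries lay above all of WT.

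Il7 averaged 2 ± 0.565 CPM in the double mutant, 1.69 ± 0.237 CPM in FLT3 ITD, 0.917 ± 0.206 CPM in Ptprc KO and 0.559 ± 0.189 CPM in WT (SD, n = 4 each). The log2 fold change of the double mutant was 1.12 (SE 0.32) against Ptprc KO and 1.83 (SE 0.32) against WT, or 1.03 and 1.73 without double mutant replicate 3. Against FLT3 ITD it was 0.24 (SE 0.31), or 0.14 without double mutant replicate 3 and 0.32 without FLT3 ITD replicate 4, so the description by which the genes were picked did not hold for Il7 against FLT3 ITD. In FLT3 ITD against WT, Il7 had a log2 fold change of 1.59 (SE 0.32), 3.01-fold, with an unadjusted p of 0.0002 and an adjusted p of 0.16 by edgeR, and it was higher in 4 of 4 libraries. Without FLT3 ITD replicate 4 it was 1.5. With DESeq2 the same difference passed, at 1.60 (SE 0.34, adjusted p = 0.0013); the adjusted p was 0.16 to 0.5 over the other alternatives. Ranges that did not overlap, in the same direction, were found in 2.89% of tested genes. In Ptprc KO against WT the log2 fold change was 0.71 (SE 0.32, unadjusted p = 0.046, adjusted p = 1 by edgeR). By CPM 0.786% of tested genes had Ptprc KO above WT without overlap, Il7 among them, although Il7 overlapped by TPM. Gm16685 is annotated antisense to Il7, and no source used here says that the counting took strand into account, so reads of the pair may not be separated.

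**Figure D2:**
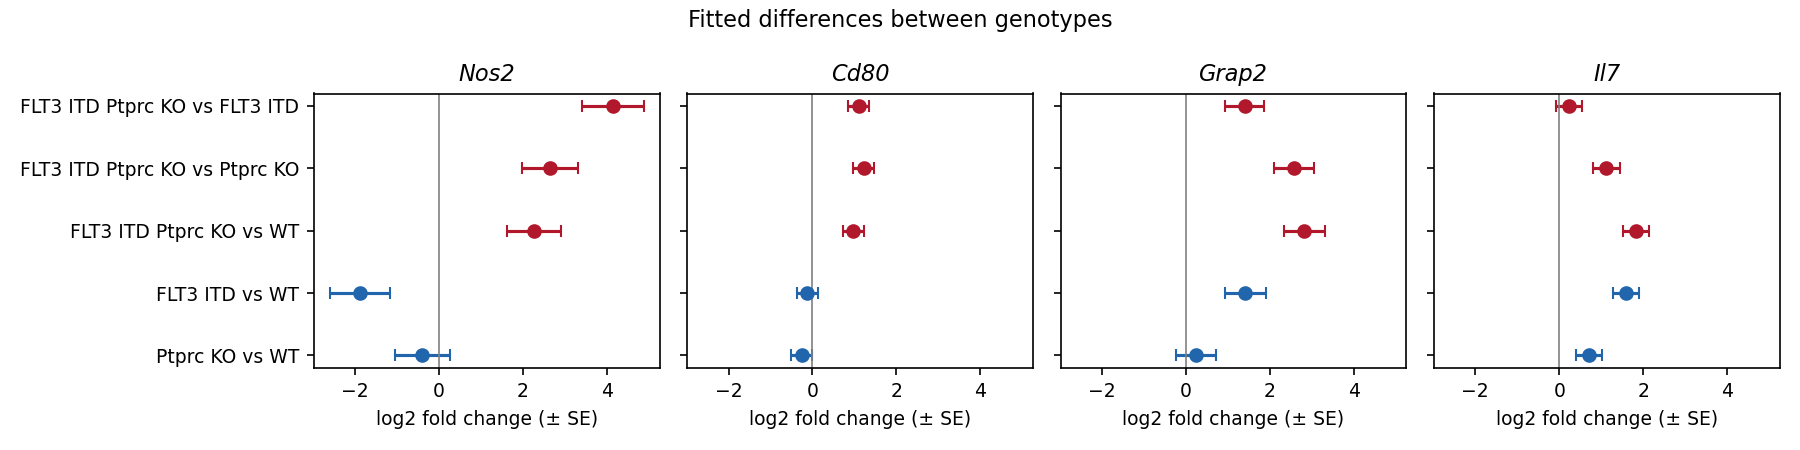
Fitted log2 fold changes of the 4 genes in 5 comparisons of genotypes, with bars of 1 SE, red for comparisons with the double mutant and blue for single mutants against WT. Nos2 and Cd80 are above 0 in each of the 3 comparisons with the double mutant and below 0 in both single mutants, while Il7 lies at 1.59 in FLT3 ITD against WT and at 0.24 in the double mutant against FLT3 ITD.

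Of 18 listed genes of the IL-7 receptor axis, 15 were tested and 0 passed by edgeR in any comparison, with 0 to 3 at an unadjusted p under 0.05. The median log2 fold change in the double mutant was 0.48 against FLT3 ITD, 0.44 against Ptprc KO and 0.30 against WT. Il7r, the specific receptor chain, averaged 144 ± 135 CPM in the double mutant, 73.2 ± 95.3 CPM in FLT3 ITD, 38 ± 48.8 CPM in Ptprc KO and 49.3 ± 34.2 CPM in WT. In FLT3 ITD its replicate 4 had 216 CPM beside 17.6 to 31.2 CPM in the other 3, and in the double mutant its lowest library was replicate 3, at 27.5 CPM. Il7 itself was highest in that same double mutant library, while in FLT3 ITD it had the same order of libraries as Il7r. Il2rg, encoding the common gamma chain, averaged 135 ± 49.4 CPM in the double mutant, 78.8 ± 58.4 CPM in FLT3 ITD, 66.1 ± 44 CPM in Ptprc KO and 74.4 ± 25.4 CPM in WT. Socs2, a feedback inhibitor that STAT5 induces, averaged 0.725 ± 0.252 CPM in the double mutant, 2.33 ± 1.12 CPM in FLT3 ITD, 4.13 ± 2.1 CPM in Ptprc KO and 2.77 ± 0.759 CPM in WT. The log2 fold change of Socs2 against Ptprc KO was -2.50 (SE 0.44, adjusted p = 0.053 by edgeR), and the adjusted p was 1.2e-05 with DESeq2. DESeq2 called many more genes than edgeR over the whole table in that comparison.

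The summed level of 12 stromal cell markers, such as Col1a1, Cxcl12 and Pdgfrb, is given beside Il7. It was 10.5 to 26.5 CPM in the double mutant, 8.75 to 20.5 CPM in FLT3 ITD, 8.65 to 18.5 CPM in Ptprc KO and 16.7 to 49.3 CPM in WT. The groups overlapped, and the part of stromal cells in the level of Il7 was not tested.

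The authors' deposited TPM values, which correct for gene length as well as library total, allow the 4 genes to be set beside each other. In the double mutant the mean level was 25.5 TPM for Cd80, 2.67 TPM for Nos2, 1.95 TPM for Grap2 and 1.19 TPM for Il7. In WT it was 13.8 TPM for Cd80, 0.574 TPM for Nos2, 0.367 TPM for Il7 and 0.298 TPM for Grap2. Cd80 was the most abundant in both genotypes, and the other 3 genes averaged at most 0.943 TPM in any other genotype. By mean CPM over all libraries, Nos2, Grap2 and Il7 lay above 10.2%, 11.7% and 10.7% of tested genes, and Cd80 above 37.9%.

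Ordered by mean CPM, the genotypes ranked differently for the 4 genes. Nos2 ran from the double mutant through WT and Ptprc KO to FLT3 ITD, and the ranges of each pair of neighbours in that order overlapped. Cd80 ran from the double mutant through WT and FLT3 ITD to Ptprc KO, with overlap among the last 3. Grap2 and Il7 both ran from the double mutant through FLT3 ITD and Ptprc KO to WT. For Grap2 each pair of neighbours overlapped, and for Il7 the double mutant and FLT3 ITD did. For Il7 FLT3 ITD and Ptprc KO, and Ptprc KO and WT, did not overlap by CPM. In TPM these Il7 pairs overlapped too. The ranges were 0.587 to 1.17 TPM in FLT3 ITD, 0.442 to 0.722 in Ptprc KO and 0.223 to 0.53 in WT. By CPM over the 4 genes, the double mutant lay above FLT3 ITD without overlap for 2, Ptprc KO for 3 and WT for 3. Over all tested genes the shares were 4.95%, 3.48% and 2.94%. By edgeR the share of all tested genes that passed was 0.00827% for the double mutant against FLT3 ITD, 0.091% against Ptprc KO and 0.108% against WT.

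The levels of the 4 genes were compared in pairs across the 16 libraries. Nos2 and Cd80 had a Spearman rho of 0.69, and Grap2 and Il7 one of 0.75 (n = 16 libraries). With the group means removed, Pearson's r was 0.20 for the first pair and -0.01 for the second. Nos2 and Il7 had a rho of 0.11. These values describe the libraries, which share genotype and culture, and carry no test.

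The 4 genes differed in how they followed the osteoclast marker level. Cd80 was lower where osteoclast markers were higher, with Pearson's r of -0.91 over 16 libraries, -0.84 without the 2 libraries farthest from the median, and -0.82 with the group means removed. Nos2 had r of -0.53, or 0.05 with group means removed; Grap2 had -0.67, or -0.32; and Il7 had -0.29, or 0.23. The part of the osteoclast marker level in the Cd80 difference was not tested. In double mutant replicate 3, whose markers were at 9.62, Cd80 was at 21.3 CPM, against 12.1 and 10.7 CPM in FLT3 ITD replicates 1 and 3, whose markers were at 10.04 and 9.99. Nos2 was at 6.81 CPM in that double mutant library, against 0.219 and 0.0625 CPM in the same FLT3 ITD libraries. Grap2 was at 1.86 CPM, against 1.97 and 1.91 CPM, and Il7 at 2.38 CPM, against 1.72 and 1.63 CPM. Beside these FLT3 ITD libraries, Nos2, Cd80 and Il7 were higher in the double mutant library and Grap2 was not. In FLT3 ITD replicate 2, with markers at 10.06, Cd80 was at 9.83 CPM, Nos2 at 0.13 CPM, Grap2 at 0.563 CPM and Il7 at 1.43 CPM. WT replicates 2 and 4 were nearer in marker level, at 9.6 and 9.58, and there Cd80 was at 14.2 and 16.4 CPM, Nos2 at 0.345 and 0.426 CPM, Grap2 at 0.239 and 0.533 CPM and Il7 at 0.663 and 0.64 CPM. All 4 genes were higher in double mutant replicate 3 than in these WT libraries. These comparisons rest on a single double mutant library and on values by which the genes were picked. FLT3 ITD replicates 1 and 3 are also the closest pair of libraries. No conclusion on the marker level is drawn from them.

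**Figure D3:**
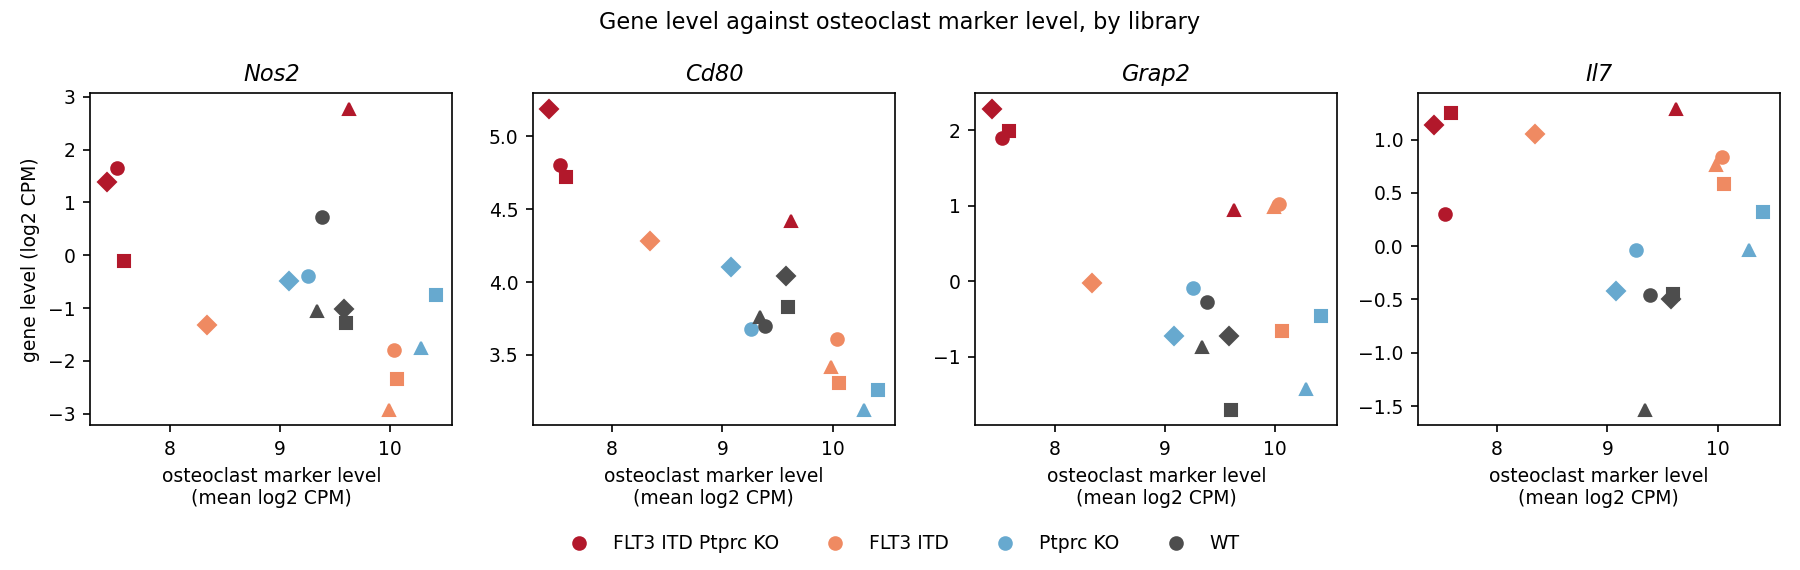
Level of each gene (log2 CPM) against the mean log2 CPM of 12 osteoclast markers, 1 point per library, coloured by genotype, with symbols for replicates 1 (circle), 2 (square), 3 (triangle) and 4 (diamond). Cd80 falls along the marker level (r = -0.91), double mutant replicate 3 is the red triangle at 9.62 and FLT3 ITD replicate 4 is the orange diamond at 8.34.

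Macrophage and dendritic cell markers are given beside Nos2 and Cd80, since both genes are used by these cells. The 9 macrophage markers summed to 7710 to 28100 CPM in the double mutant, 6160 to 29400 CPM in FLT3 ITD, 4930 to 19900 CPM in Ptprc KO and 4960 to 18000 CPM in WT. The 10 dendritic cell markers summed to 66.2 to 451 CPM in the double mutant, 25 to 193 CPM in FLT3 ITD, 29.9 to 48.3 CPM in Ptprc KO and 39.3 to 62.7 CPM in WT, so that the double mutant exceeded both Ptprc KO and WT in every library. Most of that sum was Itgax, encoding CD11c, which macrophages also make, at 198 ± 168 CPM in the double mutant, 54.6 ± 65.9 CPM in FLT3 ITD, 27.2 ± 7.93 CPM in Ptprc KO and 43.4 ± 12.2 CPM in WT. Log2 fold changes of the 7 tested dendritic cell markers were not all positive in the double mutant. There were 1 positive against FLT3 ITD, 5 against Ptprc KO and 5 against WT. Taken as mean log2 CPM of those 7, the double mutant (0.17 to 2.47) overlapped with Ptprc KO (0.78 to 1.39) and WT (0.56 to 1.02). The part of macrophages and dendritic cells in the levels of Nos2 and Cd80 was not tested. The 7 NK cell markers, which include cells that make interferon-gamma, summed to 0.337 to 3.01 CPM in the double mutant, 0.094 to 2.29 CPM in FLT3 ITD, 0.12 to 1.18 CPM in Ptprc KO and 0.0346 to 0.824 CPM in WT. B cell markers summed to 1.5 to 14.5 CPM, 0.65 to 15.2 CPM, 1.8 to 19.3 CPM and 2.36 to 13.7 CPM in the same order of genotypes, and neutrophil markers to 0.749 to 12.8 CPM, 6.24 to 108 CPM, 5.77 to 188 CPM and 1.56 to 91.8 CPM.

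Genes with the most similar pattern were sought among 9494 genes of at least 5 CPM, by Spearman's rho over the 16 libraries. For Nos2 they were Zbtb20 and Iqsec2 (rho 0.94 each) and Fam53c (0.92), whose likeness fell to 0.18, 0.30 and 0.38 as Pearson's r with group means removed. For Cd80 they were Ttc14, Mapk14 and Klhl20 (rho 0.95 each). Mapk14, encoding the kinase p38-alpha, averaged 179 CPM in the double mutant, 115 CPM in FLT3 ITD, 123 CPM in Ptprc KO and 134 CPM in WT, and kept an r of 0.80 with Cd80 when group means were removed. For Grap2 they were Ciita (rho 0.86), Rufy2 (0.84) and Itpr1 (0.83). Ciita, the master regulator of MHC class II genes, averaged 13.6 CPM in the double mutant, 5.62 CPM in FLT3 ITD, 3.84 CPM in Ptprc KO and 4.55 CPM in WT, with an r of 0.73 to Grap2 within groups. For Il7 they were Plekha5 (rho 0.83), Emc10 (0.78) and Ube2e2 (0.76), and of these Plekha5 alone kept a high r within groups, at 0.81.

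The genes beside the 4 on their chromosomes did not pass by edgeR. Among the 16 nearest tested protein-coding genes, 2 on each side of each, 0 passed by edgeR in any of the 5 comparisons (0 to 4 at an unadjusted p under 0.05), and with DESeq2 2 passed, both in the double mutant against FLT3 ITD. In that comparison DESeq2 called many more genes than edgeR over the whole table, with the counts given below. Lgals9, encoding galectin-9 and lying 2.7 kb from Nos2, averaged 60.9 CPM in the double mutant, 45.2 CPM in FLT3 ITD, 39.6 CPM in Ptprc KO and 45.9 CPM in WT. Timmdc1, 2.0 kb from Cd80, averaged 21.5 CPM, 29.3 CPM, 27.7 CPM and 26 CPM in the same order, and was thus lowest where Cd80 was highest. Fam83f, 19.0 kb from Grap2, averaged 20.7 CPM in the double mutant, 12.5 CPM in FLT3 ITD, 12.7 CPM in Ptprc KO and 15.7 CPM in WT. Zc2hc1a, 16.2 kb from Il7, averaged 11.7 CPM, 11.6 CPM, 12 CPM and 10.7 CPM.

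**Figure D4:**
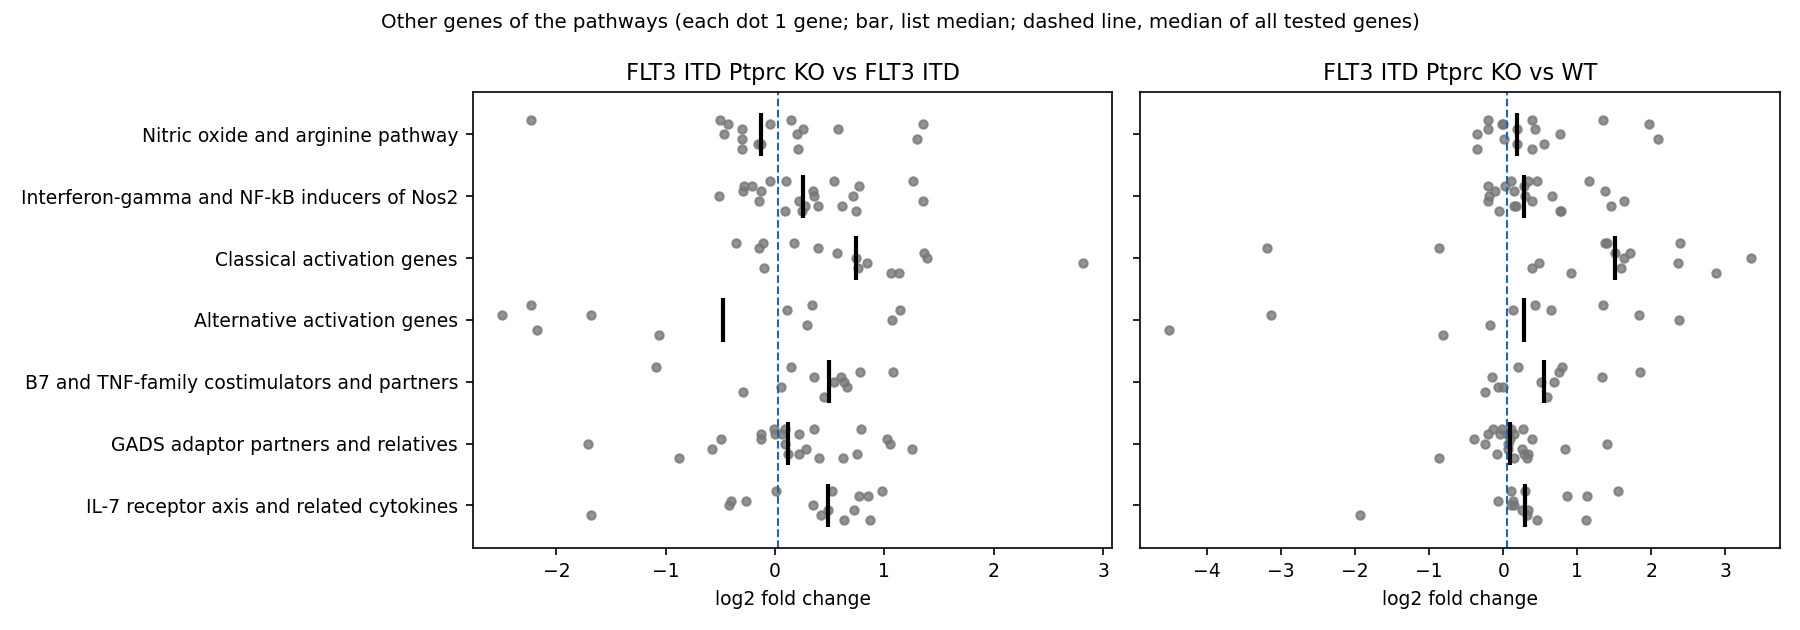
Log2 fold changes of the tested genes of 7 lists around the 4 genes, each dot 1 gene, for the double mutant against FLT3 ITD (left) and against WT (right), with the list median as a bar and the median of all tested genes as a dashed line. Classical activation genes have the highest medians, 0.74 and 1.51. Their median in FLT3 ITD against WT, which is not drawn, was 0.94. The medians of nitric oxide and GADS partner genes lie near the line for all genes, with single genes on either side of it.

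Without single libraries more of the listed genes passed. Without FLT3 ITD replicate 4, 13 listed genes passed by edgeR in the double mutant against FLT3 ITD. Among them Ass1, Slc7a2, Ifngr1, Myd88, Cxcl9, Cd274, Nck1, Fyb and Stat5b rose, and Lat2, Cblb and Socs2 fell. In the same fit 1798 of 12197 tested genes passed. Without double mutant replicate 3, Cxcl9 rose and Nfkbia, Lat, Cblb and Socs2 fell, among 1315 genes that passed. Osteoclast markers moved with these calls: without double mutant replicate 3, 10 of 12 fell, and without FLT3 ITD replicate 4, 6 of 12 fell. In the latter fit 1 of 9 tested macrophage markers (Itgam) and 1 of 7 dendritic cell markers (Itgax) rose. So did Klrb1c, the 1 NK cell marker tested. The part of these cell markers in the calls was not tested. Each of these fits rests on 3 libraries in 1 of its groups.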

How the data were processed

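RNA-seq of 16 osteoclast cultures was deposited as raw counts, whole numbers per gene that the authors did not normalize, and as TPM, which the authors scaled to gene length and library total; gene length is a further deposited column. Poly(A) RNA (500 ng input) went into a directional kit with UMI adaptors, per the labels' protocols. The submitters' processing notes name STAR 2.7.6a, featureCounts 2.0.3, UMI-tools 1.1.1, cutadapt 4.2 and bcl2fastq 2.20.0.422, with the build GRCm38.p6. No source used here states their settings or whether counting used strand. The TPM were not made from the deposited counts: TPM recomputed from counts differed per library, with a ratio of deposited to recomputed values of 0.933 to 1.03 for Cd80 and 0.69 to 1.32 for Nos2. The design text states more samples than its groups add up to, and an inhibitor named in the labels was given to no labelled sample.

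The test was that of edgeR 4.0.16 (R 4.3.3): filterByExpr, TMM, a robust quasi-likelihood fit of 4 group means over 16 libraries, two-sided, Benjamini-Hochberg over 12093 genes, threshold 0.05. With 12 residual degrees of freedom, the common dispersion of 0.137 puts the variation between replicates at 37%. Intervals and errors of counting cover counting error only. log2 CPM used a prior count of 2. Positions and neighbours came from GENCODE, promoters from RefSeq, both on GRCm38. The scripts were tested on simulated counts.

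The 4 genes, the 7 pathway lists and the 10 marker lists were chosen with earlier results of these data known. Named genes were the 4, Ptprc, list genes, the 2 nearest tested protein-coding genes on each side, and the 3 genes of at least 5 CPM with the highest Spearman correlation to each. Alternatives were DESeq2 1.42.0, RLE factors, a replicate block, fits of only the groups compared, no filter or a minimum mean count of 50, limma 3.58.1 on log2(TPM + 1), the 2 close FLT3 ITD libraries summed, and each library left out in turn.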

Additional observations from a re-analysis of the deposited data

Results flagged for a closer look

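Nos2 in WT replicate 1 was 1.59 CPM, far from the other 3 WT libraries at 0.345 to 0.426 CPM. Il7 in WT replicate 3 was 0.275 CPM, far from the other 3 WT libraries at 0.64 to 0.663 CPM. These were 2 of 16 sets of 4 libraries checked against Dixon's critical value of 0.829, a check that chance passes in about 1 of 20 sets.

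The effect of FLT3 ITD on Nos2 had opposite signs with and without Ptprc. The log2 fold change was 2.65 for the double mutant against Ptprc KO. By CPM each of the 4 double mutant libraries was above every Ptprc KO library, and by TPM 3 of 4 were. It was -1.89 for FLT3 ITD against WT, with each of the 4 FLT3 ITD libraries below every WT library, and did not pass (adjusted p = 0.59 by the edgeR quasi-likelihood test). Without WT replicate 1 it was -1.09. The difference between the 2 effects was not tested, because Nos2 was picked by its level in the double mutant.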

How the results depend on the processing

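The fold changes of the 4 genes over WT in FLT3 ITD kept their sign under every alternative tried. Signs that turned were Nos2 in Ptprc KO against WT, 0.41 without WT replicate 1 (range -0.62 to 0.41 over libraries left out), and Grap2 in the same comparison, -0.03 without Ptprc KO replicate 1 (range -0.03 to 0.52); the cause was not tested. With DESeq2, Il7 in FLT3 ITD against WT passed, at 1.60. Limma on log2(TPM + 1), a scale that compresses low genes, gave for Nos2 1.52 in the double mutant against FLT3 ITD, 1.24 against Ptprc KO, 1.09 against WT and 1.66 for the interaction, for Grap2 1.08 against Ptprc KO and 1.15 against WT, and for Il7 0.49, 0.67 and an interaction of -0.02. On that scale the median of all genes shifted to -0.20 in FLT3 ITD against WT and 0.19 in the double mutant against FLT3 ITD.

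Counts of genes called over the whole table moved widely. FLT3 ITD against WT had 5 calls, with 1 at a mean count of at least 50, 0 with the replicate block, 0 with only the groups compared, 60 with DESeq2, 1 with the close libraries summed, and 0 to 4 with a library left out. Ptprc KO against WT had 4, with 2 at that count minimum, 1 with the block, 2 with only the groups compared, 11 with DESeq2, and 2 to 7 with a library left out. The double mutant against FLT3 ITD had 1, with 0, 984 and 4 for only the groups compared, DESeq2 and TPM, and 1 to 1798 with a library left out, the highest without FLT3 ITD replicate 4. Against Ptprc KO it had 11, with 3 at the count minimum, 47 with the block, 0 with only the groups compared, 332 with DESeq2, 25 with TPM, and 2 to 786 with a library left out, the highest without double mutant replicate 3. Against WT it had 13, with 5 at the count minimum, 1 with only the groups compared, 117 with DESeq2, 6 with TPM, 8 with the close libraries summed, and 1 to 83 with a library left out.

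Listed genes called were 0 in each comparison, against 1 in FLT3 ITD against WT with DESeq2. In the double mutant there were 2 against FLT3 ITD with DESeq2 (0 to 13 with a library left out), 1 against Ptprc KO with RLE, 2 with the replicate block and 4 with DESeq2 (0 to 4 with a library left out), and 3 against WT with DESeq2 (0 to 1 with a library left out). Neighbouring genes called in the double mutant against FLT3 ITD were 2 with DESeq2 and 0 to 3 with a library left out.

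Whether replicate numbers pair the libraries was not settled. Deviations of same-numbered libraries correlated at -0.63 to 0.85, and over 0.1 in 12 of 24 pairs. All 4 pairs were over 0.1 in 1 of 6 pairs of genotypes, and 8 of 16 libraries correlated best with their own number. No chance level for these counts was worked out, and the replicate block is given as an alternative. Under the replicate block none of the 4 genes changed side of the threshold, and Nos2, Grap2 and Il7 kept values of -1.78, 1.44 and 1.61 in FLT3 ITD against WT. Nos2, Grap2 and Il7 had too few counts for the fit at a mean of at least 50. Depth limits Nos2 most, with a mean of 5 counts in FLT3 ITD.

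With libraries left out in turn, the double mutant values ranged as follows on the log2 scale. Nos2 was 3.53 to 4.55 against FLT3 ITD, 2.04 to 2.97 against Ptprc KO and 1.64 to 3.04 against WT. Grap2 was 1.15 to 1.65, 2.36 to 2.82 and 2.55 to 3.06, and Il7 0.14 to 0.42, 0.99 to 1.30 and 1.58 to 2.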
